A study of Mus musculus with 4 samples.

Results

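Liver sinusoidal endothelial cells, the lining of the liver's capillaries, were found as 459 of 25161 kept cells (28525 barcoded cells in all) in single-cell RNA libraries of CD45-enriched liver suspensions. They were chosen by their own RNA, with a rule on 13 genes. A kept cell had at least 200 genes and at most 10% of its UMIs (unique molecular identifiers, each counting 1 captured RNA molecule) in mitochondrially encoded genes. Selected cells had at least 3 UMIs of Stab2, Clec4g and Oit3 together, at least 2 of Kdr, Ptprb and Egfl7 together, and at most 1 of the vein genes Selp, Slco2a1 and Clca3a1 together. They had 0 UMIs of Clec4f, Cd3e, Cd79a and Csf3r, which mark Kupffer cells, T cells, B cells and neutrophils. The 13 genes are described below and not tested.

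The livers came from male mice aged 8 weeks that bore MC38 tumours, from a mouse colorectal cancer line, and were taken 3 weeks after tumour injection in a setting of surgical stress. Mice exercised before the operation (libraries Ex 1 and Ex 2, mice called PEx in the protocol) were compared with sedentary mice (Sed 1 and Sed 2). Both groups carried tumours, and no strain, genotype or tumour-free group was named. It is not stated whether the libraries are from different animals, and p-values cover only the spread between these libraries. The suspensions were enriched with beads against CD45, the pan-leukocyte surface protein, to a stated purity above 90%, a step not meant to keep endothelium.

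Sinusoidal endothelium lacks the continuous basement membrane of other capillaries and is perforated by fenestrae. Its scavenger receptors clear waste molecules and immune complexes from portal blood. Along the lobule, cells near the central vein release Wnt ligands that set the metabolic programme of neighbouring hepatocytes, while those near the portal tract carry arterial genes such as Efnb2. A lining that loses this state takes on capillary features such as Vwf, Ly6a and basement membrane collagens.

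The rule left 148 and 265 cells in Ex 1 and Ex 2, against 15 and 31 in Sed 1 and Sed 2. Their sums held 372498 and 807357 UMIs in Ex 1 and Ex 2, against 33406 and 77709 in Sed 1 and Sed 2, so the Sed profiles are thin. The median cell had 1416 and 1713 UMIs in Ex 1 and Ex 2, against 1388 and 1312 in Sed 1 and Sed 2. No barcode was shared between libraries within the selected cells. The nuclear RNA Malat1 was found in 75 of 148 cells of Ex 1 and 151 of 265 of Ex 2. In Sed 1 it was found in 5 of 15 cells and in Sed 2 in 11 of 31. Of the 39 Malat1 UMIs of Sed 1, 34 came from 1 cell. Among the other kept cells, which were deeper, 91.3% to 96.4% per library held it. Whether selected barcodes without Malat1 were intact cells was not tested, which limits all results of the selected cells. Whole libraries held 23918964 to 41027638 UMIs in 5297 to 8224 barcodes.

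Most markers that the rule did not use fit the label. Stab1, Fcgr2b, Gpr182, F8, Dnase1l3 and Lyve1 stood at 103 to 2701 CPM (UMIs scaled to a total of 1000000) over the 4 libraries, against 0 to 80.5 CPM in Kupffer-gated macrophages of the same libraries. They encode scavenger, Fc and orphan receptors, clotting factor VIII, a secreted nuclease and a hyaluronan receptor. Kupffer-gated cells had at least 1 UMI of Clec4f and at least 3 of Clec4f, Vsig4 and Cd5l. Clec1b, Cdh5 and Mrc1 were also found in them, at 402 to 611, 174 to 348 and 453 to 639 CPM, and set the selected cells apart less. Clec1b stood in the selected cells at 263 and 305 CPM in Ex 1 and Ex 2, against 1048 and 605 CPM in Sed 1 and Sed 2. Mrc1 stood there at 1138 and 1683 CPM in Ex 1 and Ex 2, against 539 and 553 CPM in Sed 1 and Sed 2. Ptprc, the CD45 gene, stood at 234 and 139 CPM in Ex 1 and Ex 2, against 0 and 283 CPM in Sed 1 and Sed 2. The lymphatic markers Pdpn and Ccl21a were at 0 UMIs, and 5 lymphatic markers summed to 5.37 and 6.19 CPM in Ex 1 and Ex 2, against 0 and 0 CPM in Sed 1 and Sed 2. Igkc, an antibody light chain transcript of B cells, stood at 16.1 and 27.2 CPM in Ex 1 and Ex 2, against 0 and 25.7 CPM in Sed 1 and Sed 2, and at 1294 to 5787 CPM in the other kept cells. Lyve1 differed widely within the Sed group, at 1706 CPM in Sed 1 and 103 CPM in Sed 2.

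The limit on vein genes removed a larger share of cells in Sed than in Ex. With the other criteria met, 115 and 252 cells of Ex 1 and Ex 2, against 52 and 172 of Sed 1 and Sed 2, had 2 or more UMIs of Selp, Slco2a1 and Clca3a1. These 591 cells, called vein-gene-high cells here, were 43.7% and 48.7% of both kinds together in Ex 1 and Ex 2, against 77.6% and 84.7% in Sed 1 and Sed 2. They were deeper, at a median of 5549 and 5292 UMIs in Ex 1 and Ex 2, against 8589 and 6906 in Sed 1 and Sed 2. Gpr182, a sinusoidal receptor, was as high in them, at 1677 and 1875 CPM in Ex 1 and Ex 2, against 1369 and 1667 CPM in Sed 1 and Sed 2. Selp, the P-selectin gene, stood there at 46.7 and 46.3 CPM in Ex 1 and Ex 2, against 432 and 462 CPM in Sed 1 and Sed 2. Clca3a1 stood at 83.7 and 109 CPM in Ex 1 and Ex 2, against 667 and 469.6 CPM in Sed 1 and Sed 2. Slco2a1 stood at 755 and 689 CPM in Ex 1 and Ex 2, against 1078 and 1186 CPM in Sed 1 and Sed 2. In Ex 1 Slco2a1 had 469 UMIs, Selp 29 and Clca3a1 52, and in Ex 2 they had 983, 66 and 155. In Sed 1 they had 459, 184 and 284 UMIs, and in Sed 2 1510, 588 and 598. The limit is a count not scaled to depth, and the part of depth in passing it was not tested. Vein-gene-high cells share libraries with the selected cells, so their values are a second readout from the same samples and no replication.

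Just inside the threshold on Stab2, Clec4g and Oit3, the cells with exactly 3 UMIs numbered 23 and 37 in Ex 1 and Ex 2, against 5 and 7 in Sed 1 and Sed 2. Those just outside, with 2 UMIs and the other criteria met, numbered 15 and 42 in Ex 1 and Ex 2, against 2 and 6 in Sed 1 and Sed 2. For Kdr, Ptprb and Egfl7, cells at 2 UMIs numbered 9 and 6 in Ex 1 and Ex 2, against 4 and 9 in Sed 1 and Sed 2, and cells outside at 1 UMI numbered 3 and 5 in Ex 1 and Ex 2, against 2 and 6 in Sed 1 and Sed 2. Among genes of the rule, Kdr, the main VEGF receptor, stood at 2046 and 2368 CPM in Ex 1 and Ex 2, against 539 and 695 CPM in Sed 1 and Sed 2. Ptprb, a vascular endothelial phosphatase, stood at 2897 and 3691 CPM in Ex 1 and Ex 2, against 1108 and 772 CPM in Sed 1 and Sed 2. Clec4g, a sinusoidal lectin, stood at 2736 and 3027 CPM in Ex 1 and Ex 2, against 3083 and 2085 CPM in Sed 1 and Sed 2, and its groups overlapped.

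Sinusoidal cells were a larger share of kept cells in both Ex libraries. They made up 2.44% in Ex 1 (exact 95% interval 2.07% to 2.86%) and 6.25% in Ex 2 (5.54% to 7.02%). In Sed 1 they made up 0.207% (0.116% to 0.340%) and in Sed 2 0.408% (0.277% to 0.578%). These intervals cover counting error only. The mean was 4.35% ± 2.69 in Ex and 0.307% ± 0.142 in Sed libraries (SD, n = 2 each), and the groups did not overlap. An exact permutation test of 2 against 2 libraries gave a two-sided p = 0.333, the smallest that this design allows. Vein-gene-high cells made up 1.90% and 5.94% in Ex 1 and Ex 2, against 0.716% and 2.26% in Sed 1 and Sed 2. Ex 1 lay below Sed 2 there (exact two-sided permutation p = 0.667). How many endothelial cells passed the CD45 beads in each library was not tested.

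**Figure D1:**
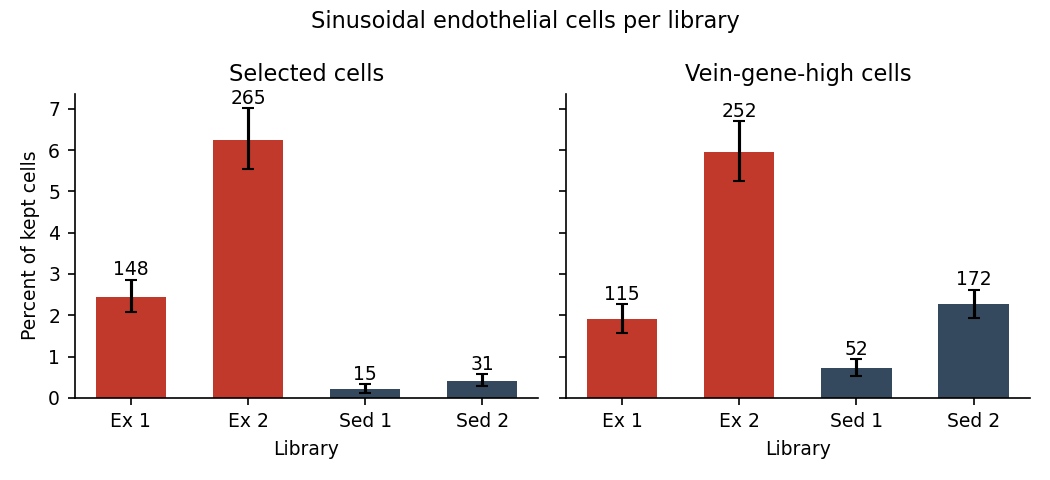
Percent of kept cells that were sinusoidal endothelial cells in each library, with cell numbers above the bars and exact 95% intervals for counting error as lines. The left panel shows the selected cells, with both Ex libraries above both Sed libraries, and the right panel the vein-gene-high cells, where Ex 1 lies below Sed 2.

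UMIs summed per library were compared between Ex and Sed with edgeR's quasi-likelihood test, and a gene was called at a Benjamini-Hochberg adjusted p under 0.05 over all genes tested. Of 3825 genes tested in the selected cells, 153 were called (4.00%), 71 higher in Ex (1.86%) and 82 lower (2.14%). Of the same 3825 genes, 695 had an unadjusted p under 0.05 in edgeR, the background for such counts of the selected cells below. All 153 had groups that did not overlap, and 39 of them encode ribosomal proteins. The share of all tested genes without overlap was not counted. A full separation of 2 against 2 libraries has an exact permutation p of 0.333, so a lack of overlap is no separate support for a call. Leaving out 1 library gave 34 calls without Ex 2, 115 without Ex 1, 115 without Sed 2 and 300 without Sed 1. Vein-gene-high cells gave 874 calls among 8211 genes (10.6%), 378 higher in Ex (4.60%) and 496 lower (6.04%). Their number fell to 332 without Ex 1 and 349 without Ex 2. Log2 changes are Ex minus Sed after TMM scaling, and their median over all genes tested was 0.10 in the selected cells and 4.20e-04 in the vein-gene-high cells. Positions are from GENCODE vM21 on GRCm38.

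Pericentral Wnt genes were higher in Ex. Wnt2 (chromosome 6, 17988940 to 18030585), the Wnt ligand of sinusoids near the central vein, had 47 and 97 UMIs in Ex 1 and Ex 2, against 0 and 0 UMIs in Sed 1 and Sed 2. No selected Sed cell held a Wnt2 molecule, while 34 of 148 cells of Ex 1 and 66 of 265 of Ex 2 did. Against a floor of 3 UMIs over the Sed group, Wnt2 was at least 4.52-fold higher in Ex (adjusted p = 0.0120). In the other kept cells, which include the vein-gene-high cells, 1.62% and 5.06% held a Wnt2 UMI in Ex 1 and Ex 2 (median depths 4009 and 3944 UMIs), against 0.0828% and 0.264% in Sed 1 and Sed 2 (medians 3486 and 3582). With each selected cell thinned to 1000 UMIs, 14 of 109 and 35 of 208 cells of Ex 1 and Ex 2 kept a Wnt2 UMI, against 0 of 11 and 0 of 20 of Sed 1 and Sed 2. Vein-gene-high cells had Wnt2 at 230.1 and 258 CPM in Ex 1 and Ex 2, against 7.05 and 20.4 CPM in Sed 1 and Sed 2 (log2 change 3.75 ± 0.31 SE, adjusted p = 1.21e-05). Both Sed libraries held the transcript there, far below both Ex libraries. In the selected cells the Wnt2 call was lost at an adjusted p of 0.114 without Sed 2. Too few molecules were left to test Wnt2 without Ex 1 or Ex 2.

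Of 12 pericentral genes listed, 6 were tested in the selected cells. Wnt2 and Tcim rose, Fabp4 fell, and the median log2 change was 1.91, or 1.45 with the 2 genes at 0 UMIs in Sed set to their floor, against 0.10 for all genes. Those 2 genes passed the count filter only through Ex, so the medians are a description and no test. With no count filter they were 3.29 for the 12 listed genes and 0.79 for all genes. Neither rise was called by DESeq2's Wald test, with the stricter cell filter (500 genes, 5% mitochondrial UMIs) or without Ex 2, where Tcim had an adjusted p of 0.271. Among vein-gene-high cells all 12 were tested, 5 rose and 1 fell (median 1.10). Rspo3, which strengthens Wnt signals, stood there at 433 and 301 CPM in Ex 1 and Ex 2, against 150.3 and 164 CPM in Sed 1 and Sed 2 (log2 change 1.03 ± 0.23 SE, adjusted p = 0.00972). Wnt9b, another Wnt of the central vein, stood at 56.3 and 23.1 CPM in Ex 1 and Ex 2, against 4.70 and 8.64 CPM in Sed 1 and Sed 2 (log2 change 2.10 ± 0.54 SE, adjusted p = 0.0286). The groups did not overlap for either gene. Rspo3 was detected in a smaller share of these cells in Ex, 15 of 115 and 24 of 252 in Ex 1 and Ex 2, against 11 of 52 and 30 of 172 in Sed 1 and Sed 2. Single cells held up to 72 and 106 Rspo3 UMIs in Ex 1 and Ex 2, against 26 and 89 in Sed 1 and Sed 2, so the sums rest on few cells. Kit, a receptor tyrosine kinase, rose by 0.77 ± 0.21 SE on the log2 scale (adjusted p = 0.0295) and the transcription factor gene Lhx6 by 2.24 ± 0.55 SE (adjusted p = 0.0205). In vein-gene-high cells the call was lost for some genes when 1 library was left out. Omitting Ex 1 gave adjusted p-values over the threshold, with Rspo3 at 0.213, Wnt9b at 0.227, Kit at 0.295 and Lhx6 at 0.118. Omitting Ex 2 did so with Kit at 0.118 and Lhx6 at 0.306.

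Fabp4, a fatty acid carrier, had 521 and 893 CPM in Ex 1 and Ex 2, against 4131 and 2869.7 CPM in Sed 1 and Sed 2 (log2 change -2.42 ± 0.33 SE, adjusted p = 7.34e-05). Its groups were well apart, and it also fell in vein-gene-high cells (log2 change -1.41 ± 0.20 SE, adjusted p = 3.96e-04). With Fabp4 counted, the pericentral list as a whole was lower in Ex in the selected cells. It summed to 1412 and 1849 CPM in Ex 1 and Ex 2, against 4341 and 3063 CPM in Sed 1 and Sed 2. On the portal side, 7 of 10 listed genes were tested in the selected cells and 0 were called by edgeR or by DESeq2's Wald test, with 1 at an unadjusted p under 0.05 in edgeR. Efnb2, an arterial ephrin ligand, stood at 69.8 and 76.8 CPM in Ex 1 and Ex 2, against 29.9 and 25.7 CPM in Sed 1 and Sed 2 (adjusted p = 0.405). Vein-gene-high cells showed falls of 3 of 7 portal genes, namely Efnb2, the scavenger receptor gene Msr1 and the netrin gene Ntn4. Efnb2 stood there at 56.3 and 58.9 CPM in Ex 1 and Ex 2, against 141 and 109.9 CPM in Sed 1 and Sed 2 (log2 change -1.27 ± 0.25 SE, adjusted p = 0.00462). Among these the call was lost, by adjusted p, without Ex 1 for Efnb2 at 0.0686, Msr1 at 0.359 and Ntn4 at 0.166, and without Ex 2 for Msr1 at 0.0977, and without Sed 1 for Msr1 at 0.0641. In single Ex cells, Wnt2 and Efnb2 shared a cell in 7 of the 34 Wnt2-positive cells of Ex 1 and in 11 of the 66 of Ex 2.

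**Figure D2:**
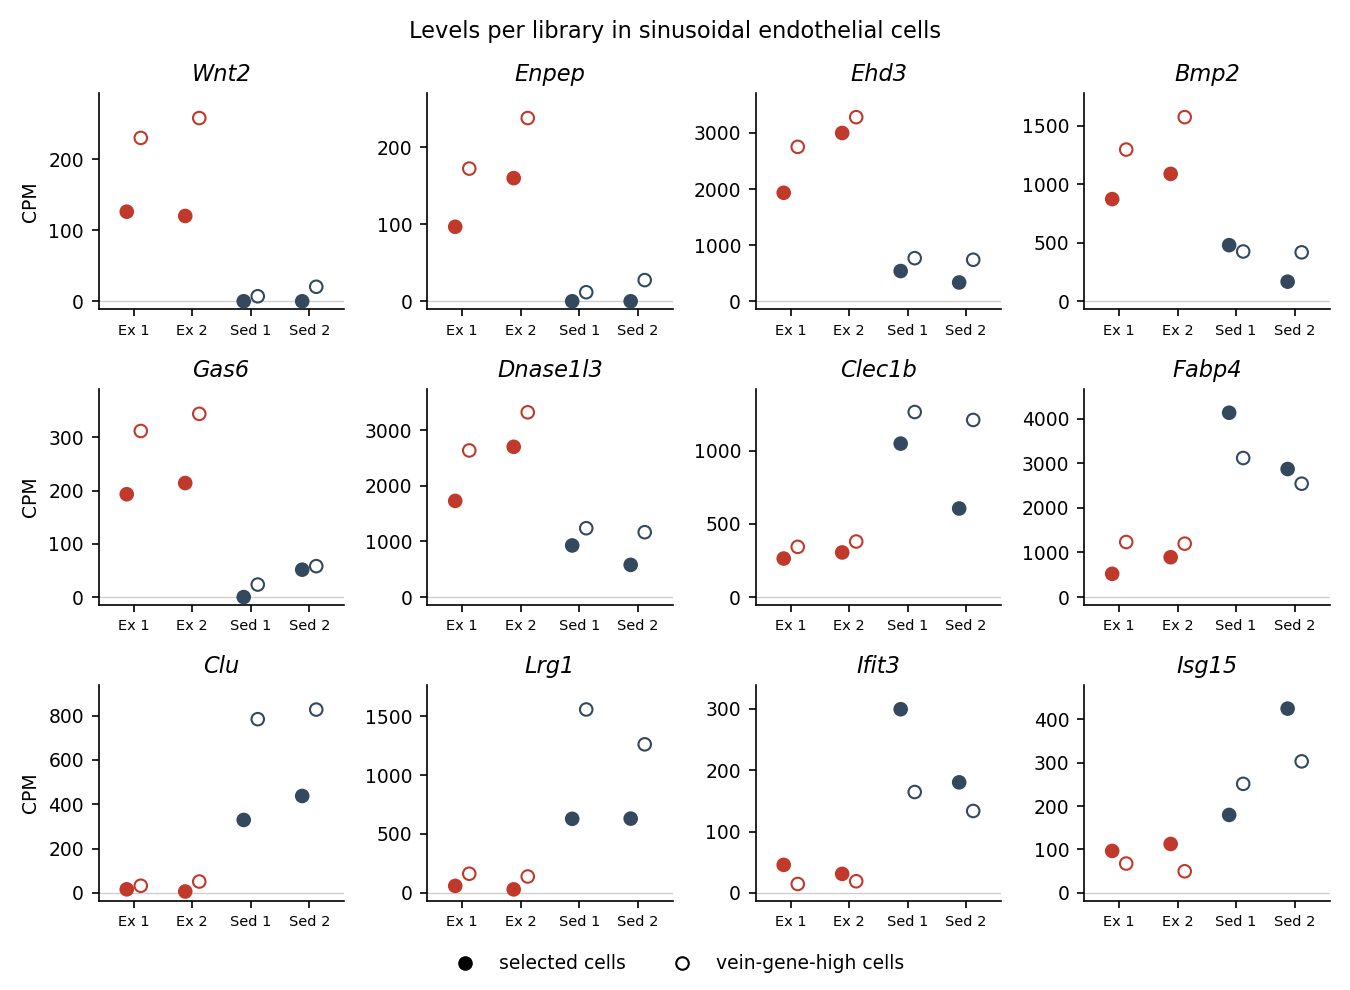
CPM of 12 genes in each library, with filled points for the selected cells and open points for the vein-gene-high cells. In both kinds of cell every Ex point lies above every Sed point for Wnt2, Enpep, Ehd3, Bmp2, Gas6 and Dnase1l3, and below for Clec1b, Fabp4, Clu, Lrg1, Ifit3 and Isg15.

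Among genes of sinusoidal identity, 22 of 24 were tested in the selected cells, 6 rose, 1 fell and 15 did not pass (median 0.57), while DESeq2's Wald test called 3. Ehd3, an endocytic recycling protein, had 1933 and 2999 CPM in Ex 1 and Ex 2, against 539 and 335 CPM in Sed 1 and Sed 2 (log2 change 2.43 ± 0.36 SE, adjusted p = 2.08e-04). The groups were well apart, and the call held with any 1 library left out. Dnase1l3, which digests DNA in circulating particles, had 1729 and 2701 CPM in Ex 1 and Ex 2, against 928 and 579 CPM in Sed 1 and Sed 2 (log2 change 1.47 ± 0.34 SE, adjusted p = 0.0175). Maf, a transcription factor of sinusoidal identity, rose by 1.46 ± 0.33 SE on the log2 scale (adjusted p = 0.0132). Nrp1, a VEGF co-receptor, rose by 1.70 ± 0.39 SE on the log2 scale (adjusted p = 0.0168), and Mrc1, the mannose receptor, by 1.23 ± 0.34 SE (adjusted p = 0.0426). Clec1b, the receptor for podoplanin, was the member that fell, with 263 and 305 CPM in Ex 1 and Ex 2, against 1048 and 605 CPM in Sed 1 and Sed 2 (log2 change -1.61 ± 0.37 SE, adjusted p = 0.0148). In vein-gene-high cells Ehd3, Dnase1l3, Maf and Nrp1 rose and Clec1b fell as well, while Mrc1 had an adjusted p of 0.167. In the selected cells the call was lost for some genes when 1 library was left out. Leaving out Ex 1 gave adjusted p-values over the threshold, with Clec1b at 0.168. Leaving out Ex 2 did so with Dnase1l3 at 0.173, Maf at 0.0690, Nrp1 at 0.246, Mrc1 at 0.544 and Clec1b at 0.270. Leaving out Sed 1 also did, with Mrc1 at 0.0945. Leaving out Sed 2 did as well, with Dnase1l3 at 0.156, Maf at 0.118, Nrp1 at 0.148 and Mrc1 at 0.127. In vein-gene-high cells it was lost, by adjusted p, without Ex 1 for Maf at 0.154, and without Ex 2 for Dnase1l3 at 0.0631 and Maf at 0.222, and without Sed 1 for Maf at 0.0510.

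Stab1, a scavenger receptor, stood at 521 and 788 CPM in Ex 1 and Ex 2, against 539 and 309 CPM in Sed 1 and Sed 2, with overlapping groups, and neither it, the Fc receptor gene Fcgr2b nor Gpr182 passed the test in either kind of cell. Of 19 scavenging and endocytosis genes tested 2 rose, Mrc1 and Dab2. Dab2, a clathrin adaptor, had 440.3 and 559 CPM in Ex 1 and Ex 2, against 89.8 and 77.2 CPM in Sed 1 and Sed 2 (log2 change 2.48 ± 0.48 SE, adjusted p = 0.00430). Its call was lost at an adjusted p of 0.0853 without Ex 2. None of 19 pan-endothelial genes was called in the selected cells (median 0.02), with 5 at an unadjusted p under 0.05 in edgeR and 0 by DESeq2's Wald test.

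The RNA of some secreted factors that act on hepatocytes or macrophages differed between the groups. Of 9 angiocrine genes tested in the selected cells Bmp2 and Wnt2 rose and Inhbb fell (median 0.67), while DESeq2's Wald test called 0 and edgeR had 5 at an unadjusted p under 0.05. Bmp2, which with Bmp6 drives hepcidin production by hepatocytes, had 872 and 1088 CPM in Ex 1 and Ex 2, against 479 and 167 CPM in Sed 1 and Sed 2 (log2 change 1.64 ± 0.42 SE, adjusted p = 0.0282). Sed 1 lay closer to the Ex values than Sed 2 did. Vein-gene-high cells had Bmp2 at 1295 and 1572 CPM in Ex 1 and Ex 2, against 425 and 418 CPM in Sed 1 and Sed 2 (log2 change 1.58 ± 0.20 SE, adjusted p = 2.39e-04). Of 14 angiocrine genes tested there 6 rose and 1 fell (median 0.90), with Bmp6 rising by 1.74 ± 0.26 SE on the log2 scale (adjusted p = 7.02e-04). Csf1, the growth factor of macrophages, stood there at 201 and 129 CPM in Ex 1 and Ex 2, against 11.7 and 23.6 CPM in Sed 1 and Sed 2 (log2 change 2.87 ± 0.32 SE, adjusted p = 1.14e-04). The selected cells held 34 and 88 Csf1 UMIs in Ex 1 and Ex 2, against 0 and 1 UMIs in Sed 1 and Sed 2, and the gene missed the threshold (adjusted p = 0.0547). Inhbb, a subunit of activin B, had 45.6 and 24.8 CPM in Ex 1 and Ex 2, against 179.6 and 116 CPM in Sed 1 and Sed 2 (log2 change -2.20 ± 0.59 SE, adjusted p = 0.0342).

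Gas6, the ligand of the receptor Mertk, which takes part in clearing dying cells, had 193 and 214 CPM in Ex 1 and Ex 2, against 0 and 51.5 CPM in Sed 1 and Sed 2 (log2 change 2.38 ± 0.63 SE, adjusted p = 0.0323). Mertk itself had 183 and 249 CPM in Ex 1 and Ex 2, against 59.9 and 25.7 CPM in Sed 1 and Sed 2 (log2 change 2.43 ± 0.60 SE, adjusted p = 0.0231). The groups did not overlap for either gene. Notch1 rose by 2.66 ± 0.61 SE on the log2 scale (adjusted p = 0.0168), the 1 call among 4 Notch genes tested. In the selected cells calls were lost for some genes when 1 library was left out. Leaving out Ex 1 gave adjusted p-values over the threshold, with Gas6 at 0.135, Mertk at 0.0720 and Inhbb at 0.601. Leaving out Ex 2 did so with Gas6 at 0.355, Mertk at 0.507, Notch1 at 0.496, Bmp2 at 0.267 and Inhbb at 0.993. Leaving out Sed 1 also did, with Inhbb at 0.0645. Leaving out Sed 2 did as well, with Mertk at 0.193, Bmp2 at 0.294 and Inhbb at 0.121. Bmp2, Bmp6, Csf1, Inhbb, Gas6 and Mertk held their calls in vein-gene-high cells with any 1 library left out.

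Capillary and basement membrane genes were lower in Ex among vein-gene-high cells. The selected cells gave 0 calls among 9 of 18 genes tested (median -0.58), with 2 at an unadjusted p under 0.05 in edgeR, while DESeq2's Wald test called 1, Esm1. In vein-gene-high cells 15 were tested, 8 fell and 1 rose (median -1.24). Vwf, the platelet-binding factor of large-vessel endothelium, stood there at 53.1 and 56.1 CPM in Ex 1 and Ex 2, against 169 and 123 CPM in Sed 1 and Sed 2 (log2 change -1.56 ± 0.26 SE, adjusted p = 0.00126). Esm1, a tip cell proteoglycan, had 3.22 and 8.42 CPM in Ex 1 and Ex 2, against 134 and 120.1 CPM in Sed 1 and Sed 2 (log2 change -4.38 ± 0.36 SE, adjusted p = 8.65e-06). Ly6c1, a capillary surface protein, had 1.61 and 9.12 CPM in Ex 1 and Ex 2, against 181 and 281 CPM in Sed 1 and Sed 2 (log2 change -5.29 ± 0.40 SE, adjusted p = 2.61e-05). For all 3 genes both Sed libraries were above both Ex libraries. The basement membrane genes Col4a1, Col4a2 and Nid1 fell by 1.01, 1.72 and 1.10 on the log2 scale. Cav1, the caveolar coat protein, was the member that rose, with 13 and 42 UMIs in Ex 1 and Ex 2, against 0 and 1 UMIs in Sed 1 and Sed 2 (adjusted p = 8.13e-04). The call was lost for some genes when 1 library was left out. Leaving out Ex 1 gave adjusted p-values over the threshold, with Col4a1 at 0.148, Nid1 at 0.131, Ly6a at 0.0546 and Edn1 at 0.180. Leaving out Ex 2 did so with Col4a1 at 0.141 and Nid1 at 0.0624. Too few molecules were left to test Cav1 without Ex 2. The vein genes Selp, Clca3a1 and, less strongly, Slco2a1 of the selection rule were lower in Ex in the same cells, and their part in this was not tested.

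Clu and Lrg1 were among the largest falls. Clu (chromosome 14, 65968483 to 65981547), the secreted chaperone clusterin, had 16.1 and 6.19 CPM in Ex 1 and Ex 2, against 329 and 438 CPM in Sed 1 and Sed 2 (log2 change -5.45 ± 0.51 SE, adjusted p = 1.21e-07). Lrg1, a secreted glycoprotein that modifies TGF beta signals in endothelium, had 59.1 and 29.7 CPM in Ex 1 and Ex 2, against 629 and 631 CPM in Sed 1 and Sed 2 (log2 change -4.03 ± 0.41 SE, adjusted p = 5.81e-07). The Sed libraries were close to each other and far above both Ex libraries. Vein-gene-high cells had Clu at 32.2 and 51.2 CPM in Ex 1 and Ex 2, against 784 and 828 CPM in Sed 1 and Sed 2. Their Lrg1 stood at 163 and 139 CPM in Ex 1 and Ex 2, against 1557 and 1261 CPM in Sed 1 and Sed 2. Clu, Lrg1, Fabp4 and Ehd3 stayed under 0.05 in both kinds of cell with any 1 library left out. Lrg1 was also detected in fewer of the other kept cells in Ex, in 14.5% and 11.3% of Ex 1 and Ex 2, against 42.8% and 26.0% of Sed 1 and Sed 2. Markers of neutrophils summed in those cells to 21073 and 12179 CPM in Ex 1 and Ex 2, against 70186 and 25322 CPM in Sed 1 and Sed 2, and the part of such cells in the Lrg1 fall was not tested.

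Kcnj8 and Abcc9, the pore and the sulphonylurea subunit of the vascular ATP-sensitive potassium channel, both fell. Kcnj8 had 29.5 and 28.5 CPM in Ex 1 and Ex 2, against 449 and 193 CPM in Sed 1 and Sed 2 (log2 change -3.42 ± 0.48 SE, adjusted p = 1.02e-04). Abcc9 had 59.1 and 59.5 CPM in Ex 1 and Ex 2, against 688 and 245 CPM in Sed 1 and Sed 2 (log2 change -2.92 ± 0.43 SE, adjusted p = 3.08e-04). Both calls held with any 1 library left out. In vein-gene-high cells Kcnj8 fell too (log2 change -4.39 ± 0.28 SE, adjusted p = 8.94e-07), while Abcc9 had an adjusted p of 0.137. Of 2 enzymes of angiotensin metabolism, Ace, which makes angiotensin II, had 2 and 7 UMIs in Ex 1 and Ex 2, against 4 and 7 UMIs in Sed 1 and Sed 2 (log2 change -3.82 ± 0.73 SE, adjusted p = 0.00430). Enpep, which degrades it, was among the largest fitted rises, with 36 and 129 UMIs in Ex 1 and Ex 2, against 0 and 0 UMIs in Sed 1 and Sed 2. Enpep was at least 5.18-fold higher in Ex over the floor of 3 UMIs (adjusted p = 0.0121). Vein-gene-high cells had Enpep at 172 and 238 CPM in Ex 1 and Ex 2, against 11.7 and 27.5 CPM in Sed 1 and Sed 2 (log2 change 3.05 ± 0.31 SE, adjusted p = 5.77e-05). Among selected cells the call was lost, by adjusted p, without Ex 1 for Enpep at 0.160, and without Sed 1 for Ace at 0.158, and without Sed 2 for Enpep at 0.0724. Too few molecules were left to test Ace without Ex 1 or Sed 2, and Ace and Enpep without Ex 2.

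Itga2b, an integrin chain known from platelets, had 13.4 and 11.1 CPM in Ex 1 and Ex 2, against 149.7 and 167 CPM in Sed 1 and Sed 2 (log2 change -3.85 ± 0.66 SE, adjusted p = 0.00137). The list of 8 platelet markers, which holds Itga2b and Clec1b, summed to 376 and 497 CPM in Ex 1 and Ex 2, against 1197 and 927 CPM in Sed 1 and Sed 2. Ppbp, Gp9 and Treml1 of that list were at 0 UMIs in both Sed libraries, and Pf4 stood at 43.0 and 78.0 CPM in Ex 1 and Ex 2, against 0 and 64.3 CPM in Sed 1 and Sed 2. Csf2rb and its near-identical copy Csf2rb2, receptor chains for haematopoietic cytokines, fell by 2.83 and 3.26 on the log2 scale, and the counting could split reads between them. Calls were lost for some genes when 1 library was left out. Leaving out Ex 1 gave adjusted p-values over the threshold, with Itga2b at 0.233, Csf2rb at 0.306 and Csf2rb2 at 0.631. Leaving out Ex 2 did so with Itga2b at 0.544, Csf2rb at 0.794 and Csf2rb2 at 0.970. Leaving out Sed 2 also did, with Itga2b at 0.0659 and Csf2rb2 at 0.206.

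Ctsj, a cathepsin known from mouse placenta, had 0 and 0 UMIs in Ex 1 and Ex 2, against 16 and 7 UMIs in Sed 1 and Sed 2, and 15 of the 16 UMIs of Sed 1 came from 1 cell. Being one of a family of close copies, it could share reads with them. In vein-gene-high cells it had 0 and 1 UMIs in Ex 1 and Ex 2, against 121 and 174 UMIs in Sed 1 and Sed 2, in 21 of 52 and 44 of 172 Sed cells. Grrp1 had 0 and 1 UMIs in Ex 1 and Ex 2, against 8 and 10 UMIs in Sed 1 and Sed 2, and in vein-gene-high cells 1 and 7 UMIs in Ex 1 and Ex 2, against 123 and 181 UMIs in Sed 1 and Sed 2. Pmf1 had 3 and 3 UMIs in Ex 1 and Ex 2, against 2 and 7 UMIs in Sed 1 and Sed 2 in the selected cells (adjusted p = 0.00430) but stood at 8.05 and 4.21 CPM in Ex 1 and Ex 2, against 7.05 and 5.50 CPM in Sed 1 and Sed 2 in vein-gene-high cells, where the groups overlapped. The call in selected cells was lost, by adjusted p, without Ex 2 for Grrp1 at 0.0914. Too few molecules were left to test Pmf1 without Ex 1 or Ex 2, and Ctsj, Grrp1 and Pmf1 without Sed 1, and Grrp1 and Pmf1 without Sed 2.

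Of the 12 genes with the largest fitted log2 rises 11 had 0 UMIs in Sed, Wnt2 and Enpep among them, and their place in that order rests on the zeros. Slc9a9, Psd3, Pla2r1 and Prickle1 were at least 3.36-, 3.52-, 3.26- and 2.89-fold higher in Ex against the floor, bounds below the 6.72-fold ratio of pooled counts of Ehd3, which had UMIs in both groups. These genes with bounds were called in vein-gene-high cells too, at log2 changes of 1.55, 1.71, 2.12 and 2.25. Rnd3, Ckb and Ttc14 were not called there, with log2 changes of 0.72, 0.34 and 0.08. In the selected cells the call was lost for some genes when 1 library was left out. Leaving out Sed 2 gave adjusted p-values over the threshold, with Slc9a9 at 0.207, Psd3 at 0.191, Pla2r1 at 0.217, Prickle1 at 0.259, Rnd3 at 0.236, Ckb at 0.266 and Ttc14 at 0.266. Too few molecules were left to test Slc9a9, Psd3, Pla2r1, Prickle1, Rnd3, Ckb and Ttc14 without Ex 1 or Ex 2.

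Type I interferon genes were lower in Ex. These antiviral genes are switched on by interferon, many of them through the interferon-stimulated response element in their promoters. Of 37 listed genes 21 were tested in the selected cells, 4 fell and 17 did not pass (median -0.89), and 1 to 5 fell with 1 library left out and 2 by DESeq2's Wald test. In vein-gene-high cells 20 of 34 fell and the others did not pass (median -1.29), and 13 to 24 fell with 1 library left out. Ifit3, an interferon-induced antiviral protein with a close copy in Ifit3b that could take some of its reads, had 45.6 and 31.0 CPM in Ex 1 and Ex 2, against 299 and 180.2 CPM in Sed 1 and Sed 2 (log2 change -2.72 ± 0.49 SE, adjusted p = 0.00206). Isg15, a ubiquitin-like modifier, had 96.6 and 113 CPM in Ex 1 and Ex 2, against 179.6 and 425 CPM in Sed 1 and Sed 2 (log2 change -1.79 ± 0.40 SE, adjusted p = 0.0132). The groups did not overlap for either gene. Ifitm3, which blocks virus entry at membranes, had 1965 and 1489 CPM in Ex 1 and Ex 2, against 5209 and 3153 CPM in Sed 1 and Sed 2 (log2 change -1.37 ± 0.31 SE, adjusted p = 0.0147), and Ifi44 fell by 1.77 on the log2 scale (adjusted p = 0.0277). In selected cells these calls were lost for some genes when 1 library was left out. Omitting Ex 1 gave adjusted p-values over the threshold, with Isg15 at 0.346 and Ifi44 at 0.429. Omitting Ex 2 did so with Ifit3 at 0.246, Isg15 at 0.461 and Ifi44 at 0.435. Omitting Sed 1 also did, with Ifitm3 at 0.158. Omitting Sed 2 did as well, with Isg15 at 0.643 and Ifi44 at 0.474.

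Irf7, the transcription factor that amplifies the response, had 77.9 and 27.2 CPM in Ex 1 and Ex 2, against 808 and 180.2 CPM in Sed 1 and Sed 2 and was not called (adjusted p = 0.243). The Sed libraries were far apart. Vein-gene-high cells had Irf7 at 45.1 and 35.1 CPM in Ex 1 and Ex 2, against 498 and 247 CPM in Sed 1 and Sed 2 (log2 change -3.42 ± 0.43 SE, adjusted p = 0.00414). Other falls there were Zbp1, a sensor of Z-form nucleic acid, by 2.89 and Ifit1 by 1.92 on the log2 scale. The tetherin gene Bst2 fell by 0.71. Oas2, an oligoadenylate synthetase gene, had 1 and 0 UMIs in Ex 1 and Ex 2, against 12 and 30 UMIs in Sed 1 and Sed 2, an Ex to Sed ratio of 0.0198 (exact 95% interval 4.89e-04 to 0.116, counting error only). In vein-gene-high cells the call was lost, by adjusted p, without Ex 1 for Bst2 at 0.268, and without Ex 2 for Ifit1 at 0.0748 and Bst2 at 0.311. Too few molecules were left to test Oas2 without Sed 2. Markers of neutrophils summed in vein-gene-high cells to 43.4 and 33.7 CPM in Ex 1 and Ex 2, against 8959 and 267 CPM in Sed 1 and Sed 2, and in the selected cells to 96.6 and 57.0 CPM in Ex 1 and Ex 2, against 299 and 1184 CPM in Sed 1 and Sed 2. Their part in the fall was not tested. The list was lower in Ex in the other cells of these libraries as well, summing over all other kept cells to 8653 and 6186 CPM in Ex 1 and Ex 2, against 12928 and 11294 CPM in Sed 1 and Sed 2. Isg15 was detected in 37.0% and 22.7% of them in Ex 1 and Ex 2, against 59.8% and 59.2% in Sed 1 and Sed 2. In Kupffer-gated cells edgeR called 1 of 36 tested interferon genes lower in Ex, with 22 at an unadjusted p under 0.05 (median -0.83), where 4 of 6890 genes were called lower in all (0.0581%). How many of all genes had an unadjusted p under 0.05 in Kupffer-gated cells was not counted, so the 22 have no background.

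Ifit3, Isg15, Ifitm3 and Ifi44 fell in both kinds of cell. The promoters of Ifit3 and Isg15 are shown as examples, picked with their matches known, to let the letters of the element be seen. The windows run from 250 bases before to 50 bases after the RefSeq gene start on GRCm38.p6. Capitals mark a pair of GAAA half-sites 2 bases apart, on either strand, as in the interferon-stimulated response element, and matches that overlap run into 1 stretch.
Ifit3, chr19:34583279-34583578, plus strand: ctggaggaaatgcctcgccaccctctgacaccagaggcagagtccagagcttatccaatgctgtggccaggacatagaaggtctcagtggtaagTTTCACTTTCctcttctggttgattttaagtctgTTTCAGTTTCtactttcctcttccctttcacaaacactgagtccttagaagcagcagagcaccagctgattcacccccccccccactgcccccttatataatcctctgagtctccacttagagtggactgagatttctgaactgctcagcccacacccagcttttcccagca
Isg15, chr4:156200769-156201068, minus strand: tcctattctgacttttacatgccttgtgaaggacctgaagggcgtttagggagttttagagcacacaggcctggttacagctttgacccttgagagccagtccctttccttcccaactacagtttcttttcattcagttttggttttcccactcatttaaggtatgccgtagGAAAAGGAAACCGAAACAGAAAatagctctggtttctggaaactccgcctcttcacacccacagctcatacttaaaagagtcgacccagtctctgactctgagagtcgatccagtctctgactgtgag
Ifit3 held 2 matches and Isg15 held 3, the first starting 156 and 78 bases before the gene start. Of the 4 genes called in the selected cells, Ifit3, Isg15 and Ifitm3 held a match and Ifi44 held none. Among the listed genes tested there, 8 of 16 with a promoter available held one in any of their promoters. Of all 32851 promoters, each counted singly, 3.44% did. The list was made of interferon genes, so its share says nothing on Ex against Sed. A match is a run of letters and no measure of binding.

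**Figure D3:**
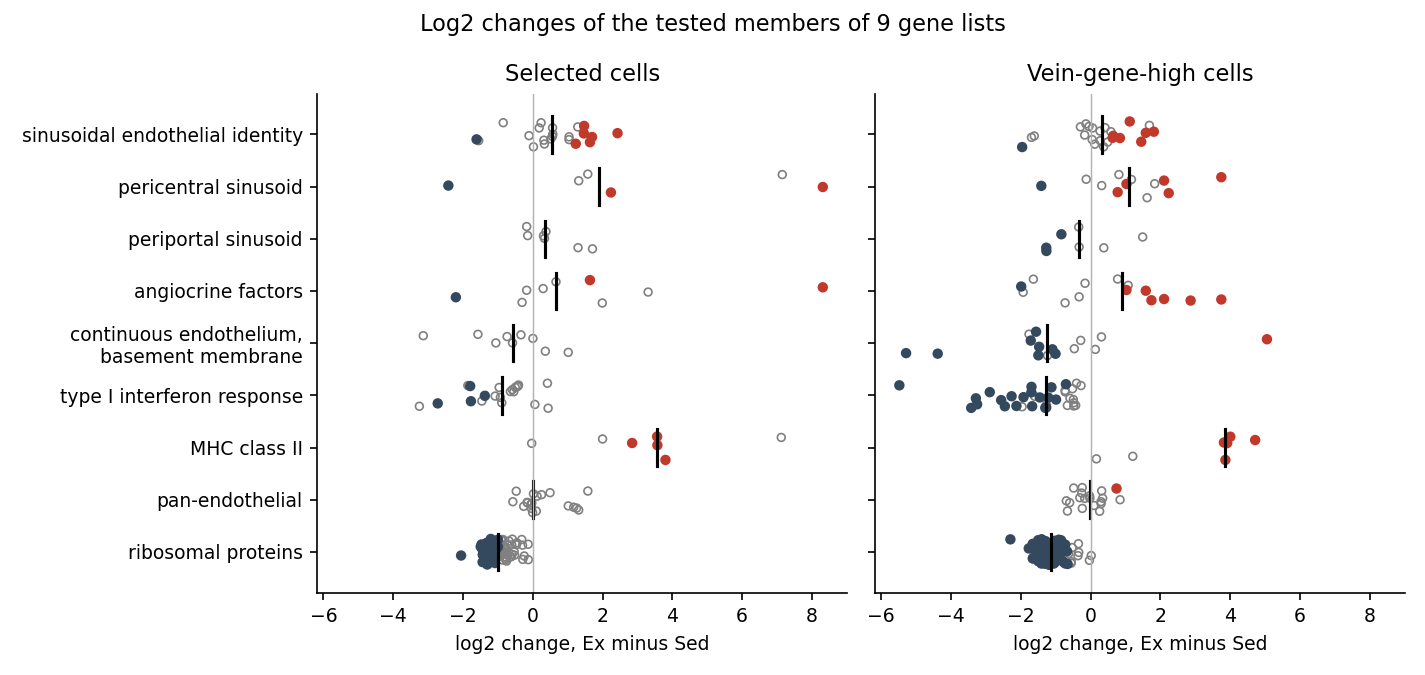
Log2 changes, Ex minus Sed, of the tested members of 9 gene lists in the selected cells (left) and the vein-gene-high cells (right), with 1 point per gene, filled where the adjusted p was under 0.05, and a black line at the list's median. Interferon and ribosomal protein genes lie mostly below 0 in both panels and MHC class II and pericentral genes mostly above, while capillary genes have called points in the right panel only.

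MHC class II genes, which present peptide to CD4 T cells, rose in the sums, but their molecules lay in few cells. Of 14 listed genes 7 were tested and 4 rose (median 3.56, or 2.85 with 1 gene at 0 UMIs in Sed set to its floor). Cd74, the invariant chain, had 2722 and 1381 CPM in Ex 1 and Ex 2, against 29.9 and 232 CPM in Sed 1 and Sed 2 (log2 change 3.56 ± 0.64 SE, adjusted p = 0.0223). H2-Aa, an alpha chain, had 1192 and 602 CPM in Ex 1 and Ex 2, against 0 and 103 CPM in Sed 1 and Sed 2 (log2 change 3.57 ± 0.69 SE, adjusted p = 0.0203), and the beta chains H2-Ab1 and H2-Eb1 rose by 3.80 ± 0.62 SE and 2.85 ± 0.66 SE on the log2 scale. The 4 calls held with any 1 library left out. Yet 8 cells of Ex 1 and 8 of Ex 2 with 10 or more UMIs of these 4 genes held 98.4% and 97.2% of their total, while 113 of 148 and 214 of 265 cells had 0. Such cells numbered 0 in Sed 1 and 2 in Sed 2. H2-Aa was detected in 8.11% and 7.55% of selected cells in Ex 1 and Ex 2, against 0% and 9.68% in Sed 1 and Sed 2, and in 27.0% to 52.2% of the other kept cells. Monocyte and dendritic cell markers summed to 3192 and 964 CPM in Ex 1 and Ex 2, against 539 and 3822 CPM in Sed 1 and Sed 2. B cell markers summed to 113 and 87.9 CPM in Ex 1 and Ex 2, against 0 and 180.2 CPM in Sed 1 and Sed 2, and the part of either in the rise was not tested. With at least 6 UMIs of Stab2, Clec4g and Oit3 required, 0 of 6 tested class II genes were called by edgeR, with 4 at an unadjusted p under 0.05 and a median log2 change of 4.38. In vein-gene-high cells 5 of 7 class II genes rose (median 3.86), and 2 of 7 without Ex 1 or without Ex 2.

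The haemoglobin genes Hba-a1, Hba-a2, Hbb-bs and Hbb-bt were all called higher in Ex. Hba-a1 had 939 and 1226 UMIs in Ex 1 and Ex 2, against 0 and 1 UMIs in Sed 1 and Sed 2. In Ex 1, 932 of the 939 lay in 1 cell, and in Ex 2, 1216 of 1226. Those cells had 80.2% and 77.5% of all their UMIs in 7 erythroid genes. Hba-a1 and Hba-a2 are near-identical copies, as are Hbb-bs and Hbb-bt, and the counting could split their reads.

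**Figure D4:**
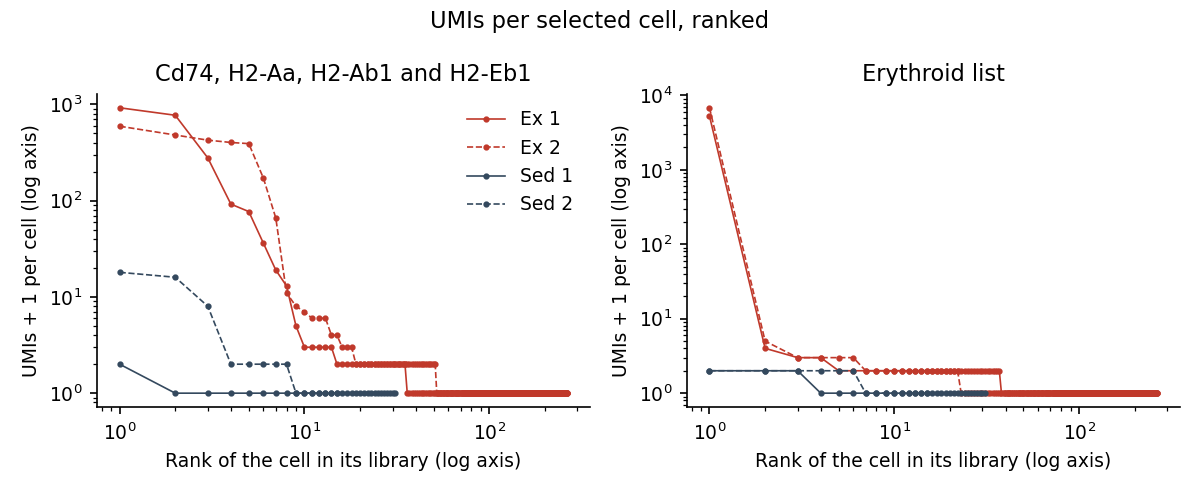
UMIs per selected cell of 4 MHC class II genes (left) and of the erythroid list (right), with cells ranked within each library on log axes and 1 added to each count. In both panels the Ex totals rest on the first few cells, up to 8 for MHC class II and 1 per library for the erythroid genes.

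Many ribosomal protein genes were lower in Ex. Of 80 tested in the selected cells 39 fell and 41 did not pass (median -0.99), in a list picked after the calls were seen. DESeq2's Wald test called 17, edgeR with no count filter 9, and edgeR with the stricter cell filter 1, at medians of -1.01, -0.69 and -0.92. Their share of UMIs was 14.6% and 11.9% in Ex 1 and Ex 2, against 24.0% and 25.5% in Sed 1 and Sed 2. Vein-gene-high cells had 10.2% and 9.12% in Ex 1 and Ex 2, against 19.7% and 18.2% in Sed 1 and Sed 2, and 71 of 80 fell there. Kupffer-gated cells had 13.3% and 11.5% in Ex 1 and Ex 2, against 17.5% and 14.2% in Sed 1 and Sed 2. Of 80 tested there edgeR called 0, with 21 at an unadjusted p under 0.05, a count without its background over all genes. All other kept cells had the opposite order, at 22.8% and 22.2% in Ex 1 and Ex 2, against 20.8% and 18.8% in Sed 1 and Sed 2. The mitochondrially encoded share of the selected cells was 4.83% and 4.78% in Ex 1 and Ex 2, against 3.43% and 3.31% in Sed 1 and Sed 2, and that of the nuclear RNA Malat1 0.746% and 0.892% in Ex 1 and Ex 2, against 0.117% and 0.573% in Sed 1 and Sed 2. Their part in the ribosomal fall was not tested. Ribosomal calls numbered 3 without Ex 2, 2 without Sed 2, 20 without Sed 1 and 47 without Ex 1. Many ribosomal genes have near-identical pseudogenes that could take some of their reads.

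**Figure D5:**
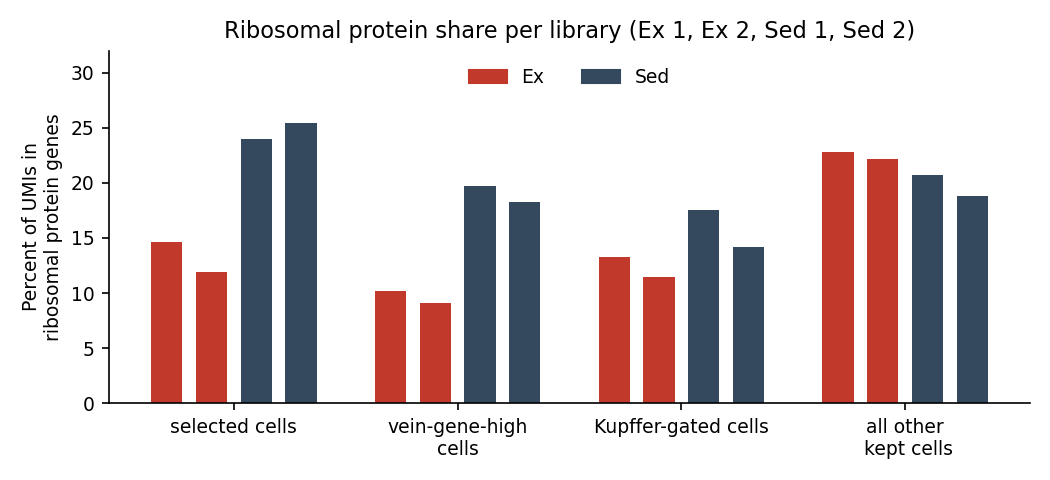
Percent of UMIs in ribosomal protein genes in each library for the selected cells, the vein-gene-high cells, Kupffer-gated cells and all other kept cells, with Ex bars left of Sed bars. In the selected cells the Ex bars reach 14.6% at most and the Sed bars at least 24.0%, and the order is turned in all other kept cells.

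Over all 3825 genes tested in the selected cells, 695 had an unadjusted p under 0.05 in edgeR. None of 101 genes of 9 immune, flow and stress lists, which share a few genes, was called there by edgeR, with 20 at an unadjusted p under 0.05, a similar share, and 0 by DESeq2's Wald test. They were 19 MHC class I and immunoproteasome genes (median 0.10), 14 interferon gamma response genes (median -0.26), 11 leukocyte adhesion genes (median -0.02), 8 chemokine genes (median 0.26) and 11 NF-kB and cytokine genes (median 0.19). The others were 7 tolerance and checkpoint ligands (median 0.65), 7 shear stress and vasoactive genes (median 0.56), 15 early response genes (median -0.10) and 13 heat shock genes (median 0.40). Vein-gene-high cells, where 10.6% of all genes tested were called, had calls in most of these lists. Lower in Ex there were 5 of 18 early response, 3 of 19 NF-kB, 2 of 13 adhesion and 2 of 21 class I genes. Interferon gamma genes had 3 lower and 1 higher of 19, and tolerance ligands 2 lower and 2 higher of 10. Shear stress genes had 1 lower and 1 higher of 10, heat shock genes 1 higher of 13 and chemokines 0 of 10. Icam1, an adhesion ligand of leukocyte integrins, had 23 and 55 UMIs in Ex 1 and Ex 2, against 0 and 1 UMIs in Sed 1 and Sed 2 (adjusted p = 0.175). Vein-gene-high cells had Icam1 at 64.4 and 90.5 CPM in Ex 1 and Ex 2, against 51.7 and 91.9 CPM in Sed 1 and Sed 2, with overlapping groups. Klf2, a flow-responsive transcription factor, stood at 244 and 303 CPM in Ex 1 and Ex 2, against 29.9 and 322 CPM in Sed 1 and Sed 2, and its groups overlapped too. Of 13 VEGF and angiopoietin genes Nrp1 rose (median 0.75), of 7 coagulation genes Gas6 (median 0.43) and of 15 BMP and TGF beta genes Bmp2 (median 0.31). Of 70 oxidative phosphorylation genes Ndufa6 fell, and of 12 glycolysis genes Pgk1 fell (log2 change -1.44 ± 0.37 SE, adjusted p = 0.0305). These calls were lost for some genes when 1 library was left out. Omitting Ex 1 gave adjusted p-values over the threshold, with Ndufa6 at 0.405 and Pgk1 at 0.505. Omitting Ex 2 did so with Ndufa6 at 0.796 and Pgk1 at 0.688. Omitting Sed 2 also did, with Ndufa6 at 0.129 and Pgk1 at 0.492.

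Whether the Ex effect differed between sinusoidal and Kupffer-gated cells was tested as an interaction in edgeR, with the library as a block. Of 6942 genes tested 38 were called (0.547%), none of them a ribosomal or listed type I interferon gene. Cxcl10, a chemokine for lymphocytes with the receptor CXCR3, had 174 and 64.4 CPM in Ex 1 and Ex 2, against 0 and 25.7 CPM in Sed 1 and Sed 2 in sinusoidal cells. Kupffer-gated cells had Cxcl10 at 133 and 109 CPM in Ex 1 and Ex 2, against 345 and 227 CPM in Sed 1 and Sed 2. The fitted log2 change was 2.51 in sinusoidal cells and -1.23 in Kupffer-gated cells, a difference of 3.93 ± 0.88 SE (adjusted p = 0.00411). The sinusoidal side rests on 0 and 2 UMIs in Sed 1 and Sed 2, so its direction is not settled. With sinusoidal cells thinned as for Wnt2, 2 of 109 and 2 of 208 cells of Ex 1 and Ex 2 kept a Cxcl10 UMI. In Sed 1 and Sed 2, 0 of 11 and 1 of 20 did. Vein-gene-high cells held 221 Cxcl10 UMIs in Ex and 142 in Sed, a ratio of 1.29 once scaled to total UMIs. Of the 65 Cxcl10 UMIs of Ex 1, 36 came from 1 cell. Cxcl9, a ligand of the same receptor, had 59.1 and 250.2 CPM in Ex 1 and Ex 2, against 149.7 and 129 CPM in Sed 1 and Sed 2 in sinusoidal cells. Its level in Kupffer-gated cells was 175 and 189.6 CPM in Ex 1 and Ex 2, against 17.7 and 4.71 CPM in Sed 1 and Sed 2, and the difference was -4.32 ± 0.71 SE (adjusted p = 1.24e-06). Neither chemokine was called within either cell type alone. The Cxcl10 difference had an adjusted p of 1 without Ex 1, 0.144 without Ex 2 and 0.0912 without Sed 2, and the Cxcl9 difference 0.382 without Ex 1 and 0.511 without Sed 2. Dab2 had 104 and 155 CPM in Ex 1 and Ex 2, against 83.8 and 180.0 CPM in Sed 1 and Sed 2 in Kupffer-gated cells, and the difference was 2.87 ± 0.66 SE (adjusted p = 0.00515), with an adjusted p of 1 without Ex 1, 0.695 without Ex 2 and 0.426 without Sed 2. The Kupffer-gated cells numbered 198 and 73 in Ex 1 and Ex 2, against 272 and 892 in Sed 1 and Sed 2. Leaving out 1 library gave 9 calls without Ex 1, 8 without Ex 2, 91 without Sed 1 and 9 without Sed 2.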

How the data were processed

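The authors deposited UMI counts per gene and cell barcode from 10x 3' v3.1 libraries as 1 aggregated matrix, made with Cell Ranger 6.1.1 per the file headers, while the submitters' processing notes name version 7.0.0 with mm10 and GRCm38. Whether depth was equalised is not given in the sources used here. Of 51140 matrix columns 28525 have a barcode, with 135480097 UMIs, and the other 22615 were not used. The number after a barcode was read as the library, which limits every comparison. The strongest changes along the columns lay 0 to 33 columns from the ends of the barcode blocks.

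UMIs were summed per library and tested with edgeR 4.0.16 in R 4.3.3 (robust quasi-likelihood, filterByExpr, TMM, Benjamini-Hochberg, threshold 0.05), with DESeq2 1.42.0 as an alternative. Each SE was derived from the log2 change and its F value. At least 20 cells per library were planned. Sed 1 had 15, so the minimum was lowered to 10 after this was seen. The vein-gene-high cells and the ribosomal list were also added after seeing the data. Members and lists were chosen with earlier results of these data known. Named genes are the 12 largest rises and falls among called genes with at least 10 CPM and no overlap (outside the selection rule, ribosomal, mitochondrial and predicted genes), list members and a fixed set, and a few others, such as Mertk, chosen after their values were seen. The result of 1 gene picked by this naming rule is not reported here. A group at 0 UMIs was set to a floor of 3 counts. Doublets were kept: Scrublet (scanpy 1.11.5) marked 1 cell in each of 3 libraries and 221 in Sed 1 by its own threshold, so an alternative left out the highest scores, 0.8% per 1000 cells. In simulated counts for the selected cells edgeR recovered 5 of the 68 genes given a 2-fold change, 54 of the 66 given 4-fold and 66 of the 66 given 8-fold, and it called 3 of the 3632 left alone. Promoters are from RefSeq on GRCm38.p6.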

Additional observations from a re-analysis of the deposited data

Results flagged for a closer look

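The Ex effect differed between sinusoidal and Kupffer-gated cells at 38 genes by edgeR's interaction test, and values are the log2 change in sinusoidal cells minus that in Kupffer-gated cells. Hba-a2 had 18.35 and Hba-a1 12.53, with nearly all UMIs in 1 cell per Ex library. Ttc14 had 10.28. Hba-a2 and Ttc14 had 0 UMIs in the selected Sed cells, so the size of these differences is set by the fit and not measured. Cxcl10 had 3.93, Dab2 2.87 and Cd74 2.44. Negative differences were found for Ace at -6.66, Cxcl9 at -4.32, the proliferation gene Top2a at -3.33 and Stmn1, a microtubule regulator of dividing cells, at -2.88. Of the 15 Top2a UMIs in Sed 2, 14 lay in 1 cell, and of the 33 Stmn1 UMIs 31 did. Hba-a1 and Hba-a2 kept their calls with any 1 library left out. The other 8 genes lost theirs without Ex 1, at adjusted p of 0.152 to 1, and without Sed 2, at 0.0912 to 0.863. Stmn1 and Top2a lost them without Ex 2 too, at 0.827 and 0.437.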

How the results depend on the processing

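Calls in the selected cells, 153 as reported, numbered 156 with DESeq2 size factors, 155 without cells over 1% Kupffer RNA and 121 with the sinusoidal sum at 6. They moved to 59 with the DESeq2 Wald test, 33 with a stricter cell filter (500 genes, 5% mitochondrial UMIs), 99 with sums thinned to the smallest, 213 with no count filter and 228 without doublets. They were 282 with the excluded markers allowed at 1 UMI, 321 among genes at or above their level in other cells, 272 without the deepest cell per library and 772 with no limit on vein genes. With 1 library left out they ranged from 34 to 300, where a lone library of a group was assumed to vary like the others. With no count filter the median log2 change of all genes was 0.79, and without Sed 2 it was 0.50. Calls higher and lower in Ex were 71 and 82 as reported, 135 and 78 with no count filter, and 21 and 38 with the Wald test. The causes were not tested.

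In vein-gene-high cells 874 calls became 453 with the Wald test, 1245 with no count filter, and 332 to 1278 with 1 library left out. The 38 interaction calls became 78 with no limit on vein genes and 8 to 91 with 1 library left out. The replicate block gave 72 calls in the selected cells and 1000 in vein-gene-high cells. Nothing in the labels pairs libraries by number, and same-numbered libraries deviated with correlations of -0.14 and -0.03 over 2 pairs.

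The mean share of sinusoidal cells was higher in Ex in every setting run, by 2.14 to 6.47 percentage points. The ratio of the Ex to the Sed mean was 14.1 as reported and 4.60 with no limit on vein genes. It was 2.63 in vein-gene-high cells, where Ex 1 lay below Sed 2. Of 46 called genes picked by the naming rule, none changed direction where it could be tested, but the number still called was 17 with the Wald test, 17 with the stricter cell filter, 33 with no limit on vein genes, and 14 to 39 with 1 library left out. Lyve1, not called with all libraries, was called in opposite directions with 1 Sed library left out, at adjusted p of 0.00262 without Sed 1 and 0.00252 without Sed 2, and ranged from -1.70 to 2.09 with 1 library left out, and Efnb2, not called in the selected cells, was called lower with no limit on vein genes, at -1.03 (adjusted p = 0.0137). The interaction ranged from -4.01 to 0.89 for Stmn1 and from -4.14 to 5.57 for Top2a, both highest without Sed 2, where neither was called. The planned comparison with vein endothelial cells was not run, since each library held 5 to 8 of them. Depth limits the Sed side, where few 2-fold changes could be called.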
